A study of Mus musculus with 2 samples.

Results

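The matrix metalloproteases, the ADAMTS proteases, the ADAMTS-like proteins and the tissue inhibitors of metalloproteases were examined in the developing ureter of mice with and without the signalling mediator Smad4. Members were chosen by gene name in the scanner files, as every non-control probe named Mmp, Adamts, Adamtsl or Timp followed by its number. This gave 51 genes of 31870 gene entries on the array, through 68 probes of 39429. They comprise 23 Mmp, 19 Adamts, 5 Adamtsl and 4 Timp genes.

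Matrix metalloproteases are zinc-dependent endopeptidases, secreted or tethered to the cell surface, that are made as inactive precursors and cut collagens, gelatins and many other matrix proteins. ADAMTS proteases are secreted relatives with thrombospondin repeats that cut proteoglycans such as versican and aggrecan, trim procollagens or act on microfibrils, while ADAMTS-like proteins share the repeats and lack the protease domain. TIMPs bind the active site of these enzymes and block it, and the balance of proteases and inhibitors shapes the matrix in which mesenchymal and epithelial tissues of the urinary tract grow and differentiate.

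RNA of whole dissected ureters at embryonic stage E14.5 was hybridised to 2 two-colour arrays, each of which set 1 Smad4cKO RNA against 1 control RNA. Smad4cKO embryos were Tbx18(cre/+);Smad4(fl/fl), and control embryos were Tbx18(+/+);Smad4(fl/+), all of the NMRI strain. Cre is made from the Tbx18 locus, active in the mesenchyme around the ureter, so the epithelium of the mutants keeps Smad4. Controls carry 1 floxed Smad4 allele without Cre, and mutants carry a Tbx18 allele with Cre that controls lack, so effects of that allele and of Smad4 loss cannot be told apart. Array 1 held a female pair with Smad4cKO in green and control in red, and array 2 held a male pair with the dyes exchanged. Sex and dye orientation therefore changed together, and the number of embryos per RNA was not stated. With whole ureters, fewer cells of a type and less RNA per cell cannot be told apart.

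Ratios below are log2 of the channel labelled Smad4cKO over the channel labelled control, each gene represented by its brightest tested probe. Errors are from limma (SE, n = 2 arrays), moderated with variance pooled over all tested genes. They can therefore be wider or narrower than the spread of a gene's own 2 ratios. Signals are the scanner software's processed intensities, background-subtracted and dye-normalized, in arbitrary units. The ratios were computed anew from the mean signals with an offset of 50, which shrinks the ratios of dim probes. For bright probes they therefore differ a little from those of the signals beside them. For dim probes they can be much smaller than the printed signals would give. The authors' deposited table gives ratios that by the dye labels run as control over Smad4cKO, although the sample titles name Smad4cKO first. Should the labels of the dyes be swapped on each array, all directions given here would be inverted, with their sizes kept. The deleted gene Smad4 had ratios of -0.69 and -0.14 on arrays 1 and 2, with a mean of -0.42 ± 0.17 and a limma adjusted p of 1.00, so it did not settle the direction. For that reason genes are called brighter or dimmer in the channel labelled Smad4cKO. Tbx18, whose locus carries Cre in the mutants, had ratios of 0.07 and 0.81. What the Cre allele does to its probe was not tested. Where channels of the groups are said not to overlap, this describes 2 signals against 2. The share of all tested genes without overlap was not counted, so no support is drawn from it. Between 68.3% and 70.3% of spots were well above background in the 4 channels, and no spot of a member was saturated or marked as an outlier. Marker genes of the ureter, among them the uroplakin genes Upk1a, Upk1b, Upk2 and Upk3a of the urothelium, Tbx18 and the smooth muscle actin gene Acta2, were well above background.

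The first 30 bases of the 60-base probes are shown for the members the results turn on, because each value below is the brightness of that one sequence and not of the whole transcript. By the ratios defined above, Adamts18 and Adamts15 were the dimmest of the tested members in the channel labelled Smad4cKO, and Mmp9 the brightest. Adamts14 and Adamts8 each had 2 probes with unlike ratios, and both probes are given. In the order of the lines, their positions in mouse build mm9 are chr8:116222720-116222779, chr9:30707033-30707092, chr2:164780620-164780679, chr10:60659860-60659919, chr10:60668150-60668209, chr9:30770384-30770443 and chr9:30751050-30751109.
Adamts18 probe: ccatagggtttaaagaatggacagatagcc
Adamts15 probe: gagtatcttcattgggttatggaccagtaa
Mmp9 probe: ccaaccttttccagctactttagtcaatca
Adamts14 probe that stands for the gene: tcaagtcatgtgtggaccggcctggagatg
Adamts14 second probe: gcccctcatcgggagtaataatgtgctcct
Adamts8 probe that stands for the gene: acccatttcaagtatttatgcaaatatgtc
Adamts8 second probe: cagaagactcccgcaaagtgccaccaccct

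A total of 37 members passed the signal filter, which asked for a probe well above background in the same labelled group on both arrays. Of the tested members, Adamts18 and Adamts15 were dimmer and Mmp9 was brighter in the channel labelled Smad4cKO by at least 1.5-fold on both arrays. Over all 21238 tested genes, 0.523% were dimmer and 0.49% brighter by that rule, 1.01% in all, and the rule has no p-value. At an adjusted p of 0.05 in limma 0 members were called in either direction, with a background of 0% of genes called brighter and 0.00471% called dimmer. At an unadjusted p of 0.05, 5 members were brighter (background 2.14%) and 8 were dimmer (background 2.97%). The 5 brighter members include Mmp9, whose p cannot be read as a test for the reason given below. No member was past 1.5-fold in opposite directions on the arrays, against a background of 1.25% of genes. The median log2 ratio of the 37 members was 0.05, beside 0.0047 over all tested genes. Of these members, 35 had both labelled groups well above background on both arrays, whereas Mmp9 and Adamtsl3 entered the test through the channel labelled Smad4cKO alone.

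**Figure D1:**
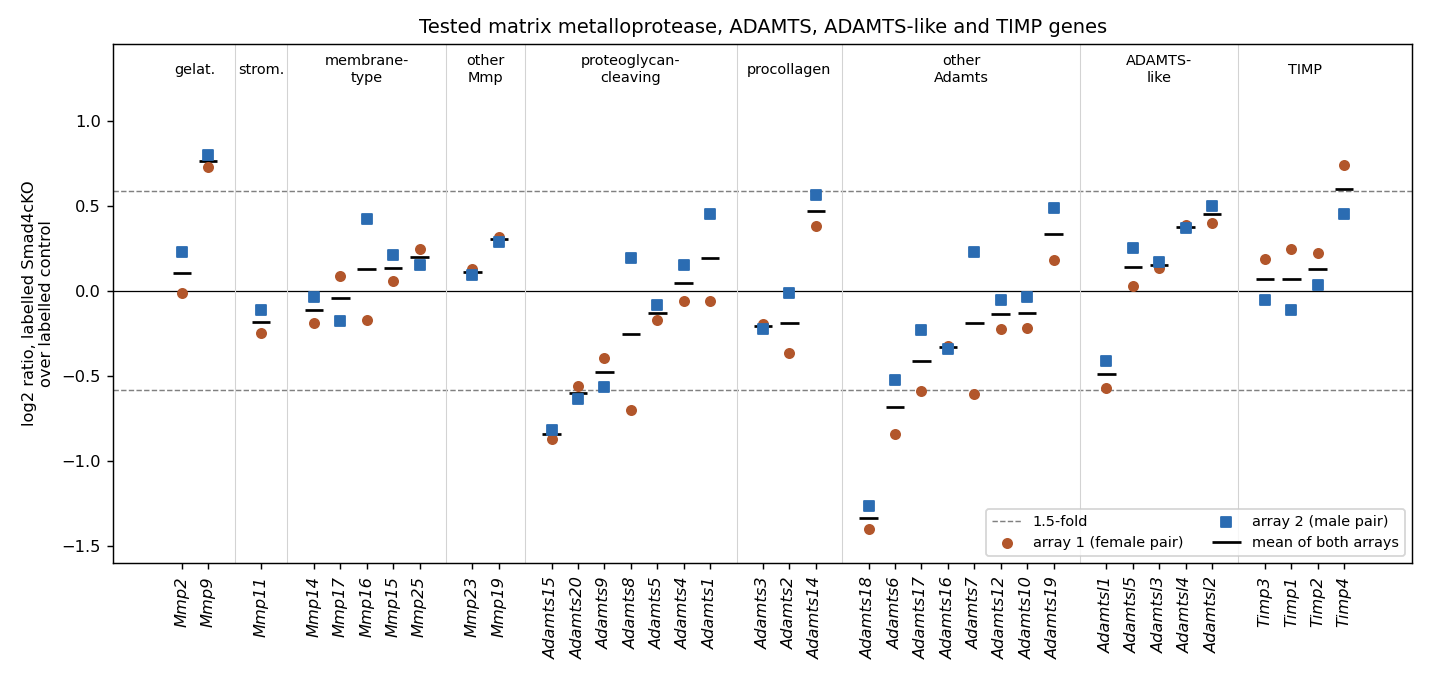
Log2 ratio of labelled Smad4cKO over labelled control for each of the 37 tested members, ordered by role, with 1 point for array 1 (female pair) and 1 for array 2 (male pair), a bar at their mean and dashed lines at 1.5-fold. Adamts18 and Adamts15 lie beyond the lower line on both arrays and Mmp9 beyond the upper line on both.

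Within the matrix metalloproteases, 10 of 23 genes were tested. Their log2 ratios ran from -0.18 for Mmp11 to 0.76 for Mmp9, with a median of 0.12. A total of 5 had positive ratios on both arrays, 2 had negative ratios on both, and 3 changed sign between the arrays. Over all tested genes, 19.9% were positive on both arrays and 19.8% negative on both.

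The gelatinases, which digest denatured collagen and basement membrane components, are Mmp2 and Mmp9. Mmp9, an enzyme known from leukocytes, osteoclasts and remodelling epithelia, gave signals of 81.9 and 101 in the Smad4cKO channels of arrays 1 and 2, against 28.8 and 31.4 in the control channels. Both Smad4cKO channels lay above both control channels, and neither control channel was well above background. The log2 ratios were 0.73 and 0.80, given only as a bound of 1.70-fold brighter. The bound uses the control's own dim signal and leaves out the error. The limma adjusted p of 0.191 cannot be read as a test, since Mmp9 was tested through its Smad4cKO channel alone. The probe is printed 10 times on each array, and the SD over its spots was 0.10 on array 1 and 0.12 on array 2. All 10 spots were well above background in both Smad4cKO channels, against 2 and 4 spots in the control channels of arrays 1 and 2. From the processed signals themselves, without the offset of 50 that draws dim spots towards 0, the log2 ratios of Mmp9 were 1.53 and 1.72, again against a control near background, so no exact fold is given. Mmp2, the gelatinase made by mesenchymal cells, had signals of 16145 and 19437 in the Smad4cKO channels, against 16574 and 16660 in the control channels. Its log2 ratios of -0.01 and 0.23 gave no common direction.

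Cell types in which Mmp9 is known were followed by their markers. The 8 macrophage and leukocyte markers, all tested, had a median of 0.19 (array 1, 0.42; array 2, 0.03), with 4 positive and 0 negative on both arrays. Their summed signal was 12769 and 13983 in the Smad4cKO channels, against 9615 and 14408 in the control channels, so the groups overlapped. Of 8 neutrophil and mast cell markers 7 were tested, with 0 positive and 2 negative on both arrays, and their summed signal was 3376 and 3356 in the Smad4cKO channels, against 3182 and 4874 in the control channels. No marker of these 2 lists passed 1.5-fold in 1 direction on both arrays. Of 8 cartilage and bone markers, none of which is an osteoclast gene, 6 were tested with a median of 0.24, 4 were positive and 0 negative on both arrays, and the bone phosphatase gene Alpl was past 1.5-fold at 0.70 and 1.18. Their summed signal was 7632 and 10075 in the Smad4cKO channels, against 7272 and 7470 in the control channels. The part of any of these markers in the Mmp9 ratio was not tested.

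The membrane-type enzymes act at the cell surface, where Mmp14 together with Timp2 activates the Mmp2 precursor. Mmp14 had signals of 3818 and 4568 in the Smad4cKO channels, against 4289 and 4724 in the control channels, and log2 ratios of -0.19 and -0.03. Mmp15 had ratios of 0.06 and 0.21, Mmp25, a lipid-anchored enzyme known from leukocytes, 0.25 and 0.15, and Mmp17, also lipid-anchored, 0.09 and -0.18. Mmp16 had signals of 129 and 167 in the Smad4cKO channels, against 153 and 108 in the control channels, so its ratio was negative on array 1 (-0.17) and positive on array 2 (0.42). By these ratios none of the 5 genes reached 1.5-fold on either array. The processed signals gave Mmp16 a log2 ratio of 0.63 on array 2, past 1.5-fold.

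Mmp11, the stromelysin typical of stromal fibroblasts, had signals of 10780 and 12808 in the Smad4cKO channels, against 13090 and 13756 in the control channels. Its ratios were -0.25 and -0.11, and a second probe gave -0.17 and -0.23, so both probes were slightly dimmer on both arrays. Mmp19, a secreted protease of basement membrane proteins, had signals of 144 and 204 in the Smad4cKO channels, against 107.1 and 156 in the control channels. The channels of the groups overlapped across arrays, while the ratios within each array were both positive, at 0.32 and 0.28 (mean 0.30 ± 0.13). Mmp23 was nearly level at 0.13 and 0.09.

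The 13 remaining Mmp genes were not tested. No probe for Mmp1a, Mmp1b, Mmp8 or Mmp13, the collagenases, for the stromelysins Mmp3 and Mmp10, for matrilysin (Mmp7), macrophage elastase (Mmp12) or enamelysin (Mmp20), or for Mmp21, Mmp27 and Mmp28 was well above background in any channel. For Mmp24, a membrane-type enzyme known from neurons, 1 of 2 probes was well above background on 1 array in each labelled group. The probes of 10 of these genes lie together on chromosome 9, at chr9:7282762-7697700 (mm9), a stretch of 415 kb that holds Mmp7, Mmp20, Mmp27, Mmp8, Mmp10, Mmp1a, Mmp3, Mmp1b, Mmp12 and Mmp13. None of the 10 clustered genes was tested, whereas Adamts8 and Adamts15, elsewhere on the same chromosome, were.

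Most ADAMTS proteases had lower Smad4cKO than control values within each array, though few by 1.5-fold. Of 18 tested genes, 12 had negative log2 ratios on both arrays, 2 had positive ratios on both, and 4 changed sign. That is 66.7% negative on both arrays, beside 19.8% of all tested genes. The 12 include Adamts2 and Adamts12, whose second tested probes changed sign between the arrays. The log2 ratios of the 18 genes had a median of -0.20 (array 1, -0.34, and array 2, -0.07). At an unadjusted p of 0.05 in limma 7 were dimmer, beside 2.97% of all tested genes. By the 1.5-fold rule 2 were dimmer, beside 0.523% of all tested genes. All 18 were well above background in both channels of both arrays. Adamts13, which cuts von Willebrand factor, was the only family member not tested.

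Adamts18, a protease with a known role in ureteric bud branching in mice, was the dimmest member. Its signals were 387 and 415 in the Smad4cKO channels, against 1059 and 1093 in the control channels. The groups did not overlap, and the arrays gave nearly the same ratio, -1.40 and -1.27. The mean was -1.33 ± 0.13, or 2.52-fold lower, with a limma adjusted p of 0.0836. The authors' deposited table lists signed folds of 2.73 and 2.61 for this probe, in its opposite direction of control over Smad4cKO. From the processed signals the mean was -1.42 with a limma adjusted p of 0.00114, and with median centring it was -1.33 with an adjusted p of 1.00.

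Adamts15, which cuts versican and aggrecan, had signals of 4426 and 5237 in the Smad4cKO channels, against 8142 and 9289 in the control channels. Again no Smad4cKO channel reached either control channel. The ratios of -0.87 and -0.82 gave a mean of -0.84 ± 0.13, or 1.79-fold lower, with a limma adjusted p of 0.163. With median centring in place of loess it no longer passed 1.5-fold on both arrays. Adamts8, another proteoglycan-cleaving enzyme, has its probe nearest to that of Adamts15 at a distance of 44.0 kb on the same chromosome. Its signals were 299 and 447 in the Smad4cKO channels, against 492 and 406 in the control channels, so its ratio was negative on array 1 (-0.70) and positive on array 2 (0.19). Its second probe gave 0.11 and -0.06, so neither probe showed a common direction.

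Further proteoglycan-cleaving genes were Adamts1, Adamts4, Adamts5, Adamts9 and Adamts20. Adamts20, the gene mutated in belted coat colour mice, is close in structure to Adamts9. Its signals were 76.0 and 91.8 in the Smad4cKO channels, against 136 and 175 in the control channels. The ratios were -0.56 and -0.64 (mean -0.60 ± 0.13, limma adjusted p 0.310), just short of 1.5-fold on array 1. With a normexp offset of 10, with processed signals and with the authors' table it passed 1.5-fold on both arrays. More of all tested genes were dimmer by that rule in these settings, 151, 199 and 184 in place of 111. Adamts9, a versican-cleaving enzyme, had signals of 10665 and 12486 in the Smad4cKO channels, against 14545 and 18049 in the control channels, with ratios of -0.40 and -0.56 (mean -0.48 ± 0.13, limma adjusted p 0.527). For both genes each Smad4cKO channel lay below each control channel. Adamts5, an aggrecanase, was slightly dimmer at -0.17 and -0.08, and its second probe at -0.29 and -0.10. Its neighbour on chromosome 16, Adamts1, whose probe lies 63.3 kb away, went the other way on array 2, at -0.06 and 0.45. Adamts4, likewise an aggrecanase, had -0.06 and 0.15. Of these 7 proteoglycan-cleaving genes, 4 were negative on both arrays and 0 positive on both, with a median of -0.26.

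The procollagen-processing enzymes remove the amino-terminal propeptide of fibrillar procollagens. Adamts14 had signals of 2091 and 2622 in the Smad4cKO channels, against 1606 and 1731 in the control channels, and ratios of 0.38 and 0.56 (mean 0.47 ± 0.14, limma adjusted p 0.547). Its second probe, with signals of 48.6 to 55.8 over all channels, gave 0.04 and 0.08, so the brightness difference rests on 1 probe. Adamts2 had -0.37 and -0.01, and its second probe -0.44 and 0.17. Adamts3, which also processes the lymphatic growth factor Vegfc, had signals of 53.6 and 57.8 in the Smad4cKO channels, against 74.4 and 75.5 in the control channels, with ratios of -0.20 and -0.22.

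Adamts6, a protease known from heart development in mice, had signals of 424 and 616 in the Smad4cKO channels, against 791 and 899 in the control channels. The groups did not overlap, and the ratios of -0.84 and -0.53 gave -0.68 ± 0.15 with a limma adjusted p of 0.292. Adamts10, a close relative of Adamts6 with a role in fibrillin microfibrils, was closer to 0 at -0.22 and -0.04. Adamts17, linked like Adamts10 to short stature with lens defects in people, had signals of 1047 and 1424 in the Smad4cKO channels, against 1542 and 1717 in the control channels. Its ratios were -0.59 and -0.23 (mean -0.41 ± 0.15, limma adjusted p 0.828), and a second probe gave -0.25 and -0.14. Adamts16, the closest relative of Adamts18, had signals of 125 and 135 in the Smad4cKO channels, against 157 and 191 in the control channels, and ratios of -0.32 and -0.34 (mean -0.33 ± 0.13, limma adjusted p 0.937). Adamts18 and Adamts16 were thus both dimmer on both arrays, Adamts18 by the wider margin.

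Adamts7 and Adamts12, which cut cartilage oligomeric matrix protein, did not share a direction. Adamts7 had signals of 515 and 723 in the Smad4cKO channels, against 785 and 612 in the control channels, with ratios of -0.60 and 0.23. Adamts12 had -0.22 and -0.05, while its second probe had -0.07 and 0.29. Adamts19, a protease linked to heart valve disease in people, was the only one of this remaining group of 8 with positive ratios on both arrays, 0.18 and 0.48 (mean 0.33 ± 0.14). Its probe is printed 10 times, with an SD over spots, a technical spread, of 0.04 on array 1 and 0.06 on array 2.

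**Figure D2:**
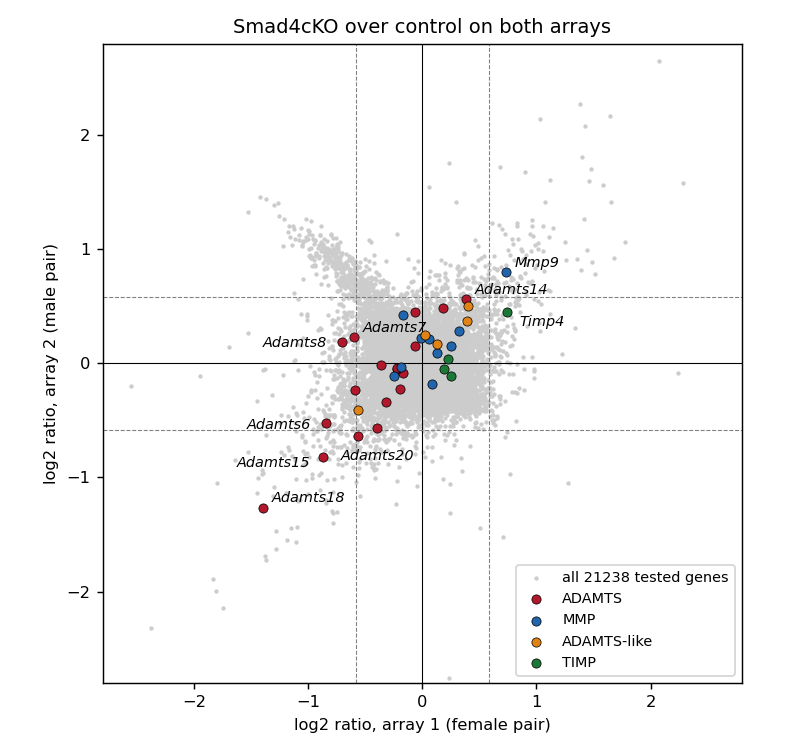
Log2 ratio on array 1 (x axis) against array 2 (y axis), grey for all 21238 tested genes and coloured for the 37 tested members by family, with dashed lines at 1.5-fold. The members spread along the diagonal from Adamts18 at the lower left to Mmp9 at the upper right, while many grey points of opposite sign lie at the upper left, where no member passed the lines.

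Across the 37 tested members the ratios of the 2 arrays correlated with a Pearson r of 0.80 and a Spearman rho of 0.70, whereas across all 21238 tested genes these values were -0.07 and -0.20. These correlations are across genes, which are not independent replicates and share the same 2 arrays, and they are given as a description. Members that changed sign were Adamts1, Adamts4, Adamts7, Adamts8, Mmp2, Mmp16, Mmp17, Timp1 and Timp3, 9 of 37. A total of 25 members were named by a rule of agreement between the arrays, and the other 12 tested members are given so that all are accounted for.

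The ADAMTS-like genes, whose products bind fibrillin microfibrils and other matrix components, were positive on both arrays in 4 of 5 cases. Of all tested genes, 19.9% were positive on both arrays. The 4 include Adamtsl3, which entered the test through its Smad4cKO channel alone. Adamtsl1 was the exception, with signals of 1132 and 1358 in the Smad4cKO channels, against 1709 and 1829 in the control channels. Its ratios of -0.57 and -0.41 (mean -0.49 ± 0.13, limma adjusted p 0.503) were close to those of its second probe, -0.46 and -0.34, so both probes were dimmer on both arrays. Adamtsl2, which binds a latent TGFB binding protein, had signals of 242 and 254 in the Smad4cKO channels, against 169 and 176 in the control channels. The ratios were 0.40 and 0.50 (mean 0.45 ± 0.13, limma adjusted p 0.577). Adamtsl4, needed for the lens suspension in people, had signals of 665 and 777 in the Smad4cKO channels, against 488 and 592 in the control channels, with ratios of 0.39 and 0.37 (mean 0.38 ± 0.13, limma adjusted p 0.749). For Adamtsl1, Adamtsl2 and Adamtsl4 no channel of a group overlapped the other group, a description with no share of all tested genes beside it. Adamtsl5 had 0.03 and 0.25. Adamtsl3, also without a control channel well above background, had 0.13 and 0.17. Its bound of 1.11-fold is only its mean log2 ratio of 0.15 ± 0.13, so an increase is not established.

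Of the inhibitors, Timp4, best known from heart and vessels, was the one with the widest ratios. It had signals of 268 and 302 in the Smad4cKO channels, against 137 and 205 in the control channels. The groups did not overlap, and the ratios of 0.74 and 0.45 gave 0.60 ± 0.14 with a limma adjusted p of 0.386, short of 1.5-fold on array 2. Timp2 had signals of 37032 and 29970 in the Smad4cKO channels, against 29742 and 33182 in the control channels, and ratios of 0.22 and 0.04. Its second probe gave 0.26 and 0.01, and from the processed signals the first probe changed sign, at 0.32 and -0.15. Timp3, which stays bound to matrix and also inhibits ADAMTS proteases, had 0.19 and -0.05, and Timp1 0.25 and -0.11. No common direction was seen for these 3 inhibitors beyond the small positive Timp2 ratios.

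**Figure D3:**
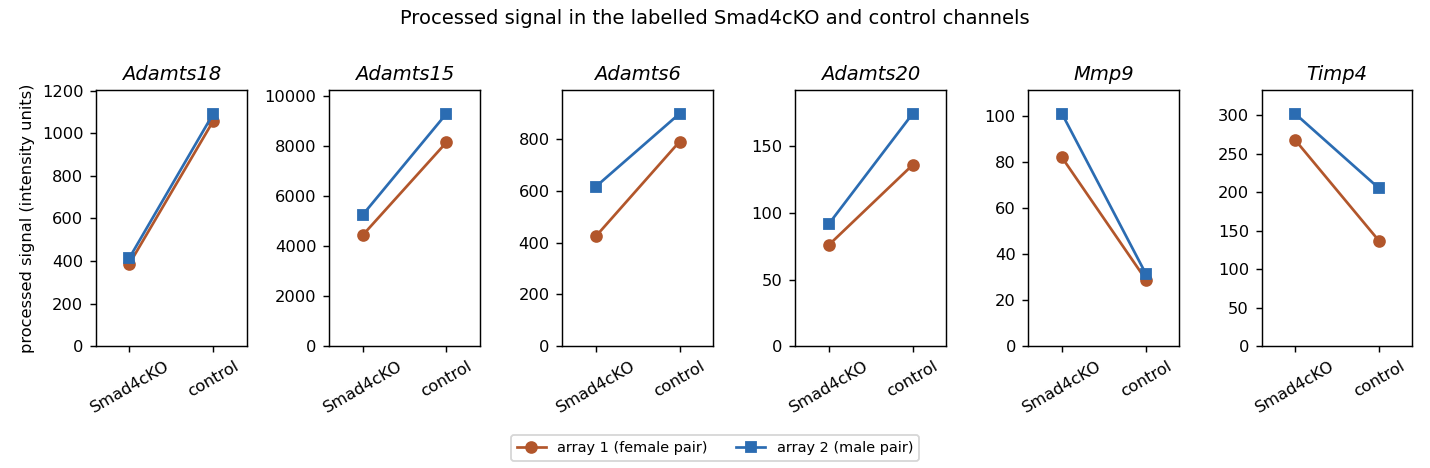
Processed signal (intensity units, linear axis from 0) of Adamts18, Adamts15, Adamts6, Adamts20, Mmp9 and Timp4, with the Smad4cKO channel left of the control channel and a line joining the channels of each array. On both arrays the Smad4cKO point lies below the control point for Adamts18, Adamts15, Adamts6 and Adamts20, and above it for Mmp9 and Timp4.

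Promoters are shown for Adamts18, Adamts20 and Timp4, members with wide ratios for which a promoter was available, because Smad4 binds DNA. Each is the 250 bases before the gene start from RefSeq (build GRCm38.p6, minus strand), at chr8:113848840-113849089, chr15:94404351-94404600 and chr6:115252206-115252455, with the SMAD box CAGAC or its reverse complement GTCTG in capitals.
Adamts18 promoter: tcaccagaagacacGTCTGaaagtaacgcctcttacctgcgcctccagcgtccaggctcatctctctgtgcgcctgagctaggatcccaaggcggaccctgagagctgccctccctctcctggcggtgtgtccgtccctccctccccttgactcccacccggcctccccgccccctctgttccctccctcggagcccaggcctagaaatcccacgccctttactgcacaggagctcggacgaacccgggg
Adamts20 promoter: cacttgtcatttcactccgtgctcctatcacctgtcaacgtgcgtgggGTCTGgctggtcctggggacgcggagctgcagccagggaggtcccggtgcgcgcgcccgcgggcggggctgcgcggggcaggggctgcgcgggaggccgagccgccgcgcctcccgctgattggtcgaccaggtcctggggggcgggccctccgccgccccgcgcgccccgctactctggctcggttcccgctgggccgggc
Timp4 promoter: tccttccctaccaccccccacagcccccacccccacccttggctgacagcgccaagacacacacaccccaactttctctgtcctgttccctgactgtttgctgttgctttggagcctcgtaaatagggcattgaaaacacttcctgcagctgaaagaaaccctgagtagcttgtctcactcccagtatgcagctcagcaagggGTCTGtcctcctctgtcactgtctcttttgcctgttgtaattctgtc
Each holds 1 match, for Adamts18 and Adamts20, which were dimmer, and for Timp4, which was brighter. A promoter entry was found for 36 of 51 members, 22 of them tested, with 39 promoters in all. CAGAC on either strand was present in 18 of the 39 (46.2%), beside 42.2% of all 32851 promoters. The palindrome GTCTAGAC was in 0 of the 39 and in 0.167% of all promoters, and GGCGCC, searched as a GC-rich SMAD motif, in 17.9% of the 39 and 9.59% of all. GTCTAGAC and GGCGCC read the same on both strands and hold neither CAGAC nor GTCTG, and a match describes only the letters of the window.

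Other genes of the same proteolytic system were compared as lists. Of 13 ADAM proteases, which lack thrombospondin repeats, 11 were tested with a median log2 ratio of -0.05, and Adam33 passed 1.5-fold. Adam33, a protease of smooth muscle and mesenchyme, had signals of 232 and 292 in the Smad4cKO channels, against 525 and 580 in the control channels, and ratios of -1.05 and -0.89 (mean -0.97, limma adjusted p 0.139). Astacin and procollagen proteases (4 of 7 tested, median 0.02) and the plasminogen activator system (6 of 9 tested, median -0.09) had no gene past 1.5-fold in 1 direction. Of 16 activators, cell surface regulators and other inhibitors, 12 were tested with a median of -0.03, and Wfikkn2, a secreted protein with protease inhibitor domains, was dimmer at -0.84 and -0.65.

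Among 23 tested of 25 proteoglycan and matrix substrates, the median was -0.04. Hapln1, the link protein that ties versican and aggrecan to hyaluronan, was brighter at 0.85 and 0.76, and Tnc, the matrix glycoprotein tenascin C, was dimmer at -1.37 and -0.63. Vcan, which encodes the ADAMTS substrate versican, was near 0 at -0.16 and 0.01. A further 4 substrates passed 1.5-fold in opposite directions. Col1a1 had -1.37 and 1.44, Col1a2 -0.95 and 0.85, Col3a1 -1.14 and 1.03, and the fibronectin gene Fn1 -0.98 and 0.92, that is, each was brighter in the red channel on both arrays. Of 13 fibrillin and microfibril partners, all tested with a median of 0.01, Mfap4, a microfibril protein, was dimmer at -0.90 and -0.72. Of 4 glycosylation partners 2 were tested, with a median of 0.20 and none past 1.5-fold.

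Markers of other tissues moved beside the ADAMTS ratios. All 8 neuronal and glial markers were tested and negative on both arrays, with a median of -0.79, and their summed signal was 7126 and 7757 in the Smad4cKO channels, against 11810 and 10465 in the control channels. Of 8 kidney and nephric markers, all tested, 6 were negative on both arrays, with a median of -0.31 and a summed signal of 10968 and 12033 in the Smad4cKO channels, against 15446 and 16970 in the control channels. All 7 smooth muscle markers were positive on both arrays, with a median of 1.59 and a summed signal of 30500 and 48200 in the Smad4cKO channels, against 16355 and 15138 in the control channels. The 9 urothelial markers had a median of -0.01 and the 6 markers of ureteric mesenchyme, the tissue with Cre, 0.09. The mesenchymal markers went both ways: Aldh1a2, an enzyme of retinoic acid synthesis, was dimmer past 1.5-fold at -0.75 and -1.30 (limma adjusted p 0.187), while the transcription factor gene Tcf21 had 0.92 and 0.33 (limma adjusted p 0.543). Their part in the ratios of Adamts18, Adamts15 and the other members was not tested.

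**Figure D4:**
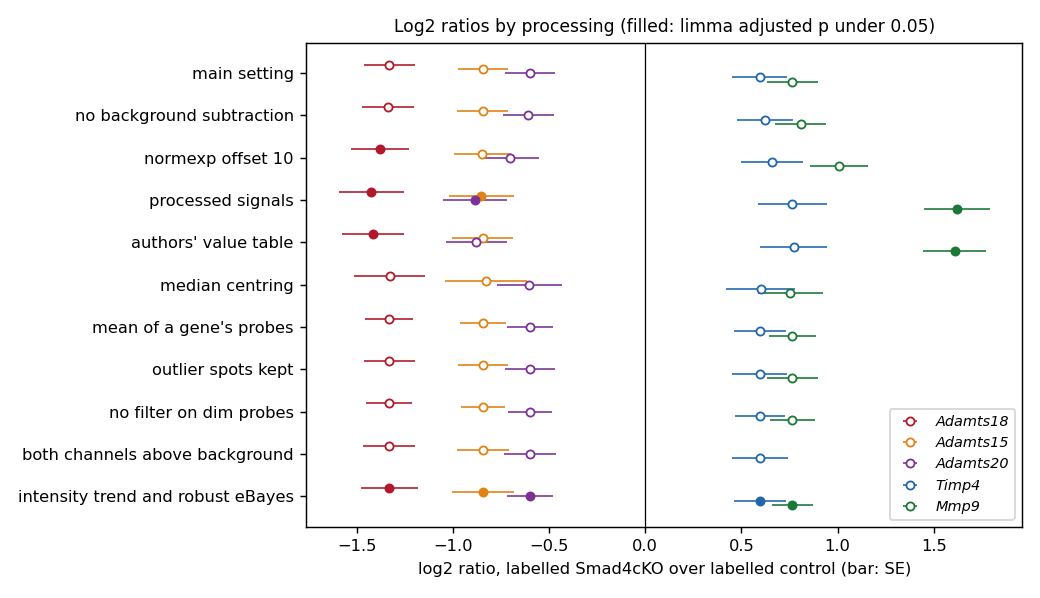
Mean log2 ratio of Smad4cKO over control for selected members under each way of processing the signals, with bars for the SE and filled points where the limma adjusted p was under 0.05. Adamts18 lies between -1.42 and -1.33 in the settings plotted, while Mmp9, whose control channel was near background, runs from 0.75 to 1.62. Filled points of Mmp9 rest on its Smad4cKO channel alone.

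The way the signals were processed bore on Mmp9 and on the calls more than on the sizes of Adamts18 and Adamts15. Over the alternatives that kept both arrays, the mean of Adamts18 ranged from -1.42 to -1.33 and that of Adamts15 from -0.85 to -0.83, whereas Mmp9 ranged from 0.75 to 1.62 against a control near background. The limma adjusted p of Adamts18 was under 0.05 in 4 of 10 such alternatives and reached 1.00 with median centring. Some members with dimmer probes ranged wider over the same alternatives, Adamts20 from -0.88 to -0.60, Timp4 from 0.60 to 0.77 and Adamts3 from -0.43 to -0.18. With processed signals the mean of Adamts20 was -0.88, below that of Adamts15 at -0.85. In that setting limma called Adamts18, Adamts15, Adamts20 and Mmp9. Mmp9 is not tested at all where both channels must be above background. With an intensity trend and robust variances it called Adamts14, Adamtsl2, Mmp9 and Timp4 brighter and Adamts6, Adamts15, Adamts18, Adamts20 and Adamtsl1 dimmer.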

How the data were processed

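Per the file headers and the submitters' processing notes, the authors' scanner files came from Agilent Feature Extraction 10.7.3.1 and hold an intensity per spot and channel on build mm9, with a deposited log10 ratio of red over green. Both arrays share 1 slide and scan. The authors' deposited value table holds signed folds, which followed the processed signals up to a constant, with a column median of 1.

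Mean signals were background-corrected (normexp, offset 50) and normalized by loess with limma 3.58.1 in R 4.3.3. Outlier and control spots were left out, and spots of a probe averaged. Testing required 1 labelled group to be well above background on each array, and the brightest such probe represented its gene. Log2 ratios were tested against 0 with lmFit and eBayes, with Benjamini-Hochberg adjustment over 21238 genes at 0.05. An untested rule asked for 1.5-fold in 1 direction on both arrays. Where both channels of a group were near background, only a bound is given for the fold. It uses the dim group's own signal and leaves out the error, so it is no guaranteed minimum. A limma p of such a gene rests on the other group alone. Scripts were tested on simulated data.

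Members and lists were chosen with earlier results of these data known. Named members were those past a rule, then those with the same sign on both arrays in order of the smaller ratio, up to 25, with the brightest where a role had none. From other lists, genes past 1.5-fold were named. Col1a1, Col1a2, Col3a1, Fn1, Vcan, Alpl, Aldh1a2 and Tcf21 were added after their values were seen. Nothing states that the RNAs came from separate litters, so p-values and errors speak only for these 2 arrays, and that number limits the precision. Both are moderated by eBayes, with 4.89 prior and 1 residual degrees of freedom. They therefore reflect mostly the variance pooled over all tested genes, and less a gene's own 2 values. No sequence is given for Adamts19.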

Additional observations from a re-analysis of the deposited data

Results flagged for a closer look

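Adamts7, Adamts8 and Mmp16 had log2 ratios of opposite sign on the 2 arrays with a wide gap between them. Adamts7 was dimmer on array 1 (-0.60) and brighter on array 2 (0.23), so array 2 lay 0.83 above array 1. Adamts8 was dimmer on array 1 (-0.70) and brighter on array 2 (0.19), a gap of 0.89, and its second probe, at 0.11 and -0.06, did not show it. Mmp16 was dimmer on array 1 (-0.17) and brighter on array 2 (0.42), a gap of 0.59. Array 1 held the female pair and array 2 the male pair with the dyes exchanged, so sex and dye cannot be told apart, and the differences were not tested.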

How the results depend on the processing

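Over the alternatives that kept both arrays, the mean ratio of every named member kept its sign. Single arrays did not always keep it, as Timp2 had 0.32 and -0.15 from the processed signals. The mean of Adamts12 came to -0.02 when its probes were averaged. At an adjusted p of 0.05 limma called 0 members brighter and 0 dimmer. It called 0 brighter and 1 dimmer (Adamts18) with a normexp offset of 10, 1 and 3 with processed signals, 1 and 1 with the authors' table, and 4 and 5 when eBayes was robust and followed an intensity trend. Over all genes these settings called 35 and 31, 143 and 160, 76 and 82, and 298 and 407 genes, beside 0 and 1. The brighter member with processed signals and with the authors' table was Mmp9, also 1 of the 4 in the last setting. Mmp9 entered through its Smad4cKO channel alone, so its calls cannot be read as tests. By the 1.5-fold rule 1 member was brighter and 2 were dimmer, and 3 were dimmer, with Adamts20 added, under a normexp offset of 10, processed signals and the authors' table. Requiring both channels above background left 0 brighter, since Mmp9 was not tested, and a median over members of -0.0445 in place of 0.0460. Median centring left 1 dimmer (Adamts18), put 1 member past 1.5-fold in opposite directions in place of 0, left 2 genes of the other lists dimmer in place of 4, and put 1440 of all genes in opposite directions in place of 266; the cause was not tested. On 1 array alone, with no residual degrees of freedom and hence no limma count, members past 1.5-fold numbered 1 to 2 brighter and 3 to 6 dimmer, genes of the other lists 1 to 8 brighter and 4 to 10 dimmer, and the median over members was -0.0620 to 0.0358. The higher counts of dimmer genes came without array 2, and the 8 brighter ones without array 1. How many of all tested genes passed 1.5-fold on 1 array alone was not counted. These counts therefore have no background beside them, and no excess is read from them. No paired analysis was possible because each array already sets 1 Smad4cKO RNA against 1 control RNA as a ratio. With a control channel near background, depth of signal limits Mmp9 and Adamtsl3 to bounds.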
